A study of Mus musculus with 18 samples.

Results

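The genes described here make cholesterol or control the sterol content of the cell. They were named by gene symbol, 29 in all: 20 enzymes that carry acetyl units to cholesterol and its prenyl side products, and 9 genes of sterol sensing, sterol transport and sterol export. Of these, 26 had a probe set on the array, 1 each, among 19505 genes tested through 19572 probe sets. They comprise 18 enzymes and 8 control and transport genes. No probe set matched Acat2, Tm7sf2 or Srebf1, which were not analysed here.

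RNA from pituitary and skin of C57BL/6 mice labelled as female and 5 to 6 weeks old was measured on 18 Affymetrix Clariom S arrays. Each tissue was taken from lncKO mice, which lack the MIR205HG long noncoding RNA, from miR-205 KO mice, which lack the microRNA encoded there, and from wild-type mice. There were 3 arrays in each of the 6 groups. Pituitary samples are numbered 13 to 15 (lncKO), 16 to 18 (miR-205 KO) and 10 to 12 (wild type), and skin samples 4 to 6 (lncKO), 7 to 9 (miR-205 KO) and 1 to 3 (wild type). The labels name no allele and do not say whether replicates are different mice. The p-values therefore reflect the spread among the deposited samples alone, which could be technical.

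Cells build sterols from acetyl units through mevalonate, isoprenoid diphosphates, squalene and lanosterol, and then trim lanosterol to cholesterol. When membrane sterol is low, the escort protein Scap carries the transcription factor precursor encoded by Srebf2 out of the endoplasmic reticulum for cleavage, and the freed factor switches on genes of the pathway, Insig1 among them. Insig proteins hold Scap back when sterol is plentiful, while oxysterols act through the receptor LXR on export genes. Skin makes sterols for the epidermal barrier and for sebum, and the pituitary is rich in secretory cells that use cholesterol in their membranes.

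The mature microRNA is shown because the miR-205 KO genotype is named for it. Its level was not analysed here in either knockout. In the RefSeq annotation of build GRCm38.p6 its guide strand lies at chr1:193507503-193507524 on the minus strand. Capitals mark the seed, bases 2 to 8.
mmu-miR-205-5p: uCCUUCAUuccaccggagucug

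Promoters of 5 members are shown because these genes carry the comparisons below. Idi1 was the member past the threshold in lncKO pituitary and Msmo1 had the lowest fold change there. Mvd and Nsdhl passed in both knockouts in skin. The promoter of Hmgcs1 held an exact match to the sterol element. Each stretch is the 250 bases upstream of the RefSeq start site in build GRCm38.p6, printed 5′ to 3′ on the strand of the gene. The stretches lie at chr13:119690101-119690350 on the plus strand for Hmgcs1, chr13:8885356-8885605 on the plus strand for Idi1, chr8:64733579-64733828 on the minus strand for Msmo1, chr8:122443423-122443672 on the minus strand for Mvd and chrX:72918271-72918520 on the plus strand for Nsdhl. Capitals mark matches on either strand to the sterol element TCACNCCAC, to CCAAT and to the GC box GGGCGG.
Hmgcs1: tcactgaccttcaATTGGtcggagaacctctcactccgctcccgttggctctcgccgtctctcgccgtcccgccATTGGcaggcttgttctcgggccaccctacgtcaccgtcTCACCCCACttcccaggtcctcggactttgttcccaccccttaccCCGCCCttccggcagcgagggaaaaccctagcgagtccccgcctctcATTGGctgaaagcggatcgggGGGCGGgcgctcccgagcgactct
Idi1: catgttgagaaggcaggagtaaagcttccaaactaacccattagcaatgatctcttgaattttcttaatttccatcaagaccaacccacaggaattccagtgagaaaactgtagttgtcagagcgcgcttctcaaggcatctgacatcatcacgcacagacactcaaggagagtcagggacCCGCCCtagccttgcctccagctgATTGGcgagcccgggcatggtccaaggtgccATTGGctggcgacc
Msmo1: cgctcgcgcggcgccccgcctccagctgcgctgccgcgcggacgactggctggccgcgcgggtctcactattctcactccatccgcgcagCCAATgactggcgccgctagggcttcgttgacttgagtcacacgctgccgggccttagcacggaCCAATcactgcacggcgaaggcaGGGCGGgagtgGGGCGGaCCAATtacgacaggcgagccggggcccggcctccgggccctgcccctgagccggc
Mvd: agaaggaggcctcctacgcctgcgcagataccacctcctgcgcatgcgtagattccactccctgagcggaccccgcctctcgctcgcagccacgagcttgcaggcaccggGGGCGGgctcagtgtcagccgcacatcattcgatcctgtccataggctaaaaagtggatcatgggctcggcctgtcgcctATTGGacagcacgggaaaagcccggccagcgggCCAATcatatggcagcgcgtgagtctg
Nsdhl: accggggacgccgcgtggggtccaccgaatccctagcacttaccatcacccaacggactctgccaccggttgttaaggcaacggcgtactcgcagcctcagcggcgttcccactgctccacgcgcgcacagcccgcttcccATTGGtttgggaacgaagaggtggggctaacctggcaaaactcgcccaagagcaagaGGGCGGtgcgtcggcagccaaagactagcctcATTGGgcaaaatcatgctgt

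The RefSeq promoter table held 27 such stretches for 21 of the 26 measured genes, and none for Fdps, Fdft1, Sqle, Stard4 and Abcg1. Genes with several start sites count more than once, and their stretches can overlap. An exact match to the sterol element was found in 1 of the 27 stretches (3.7%), against 1.05% of all 32851 promoters. It lay in that of Hmgcs1, with its first base at position -137. Near matches were not counted, so other stretches may hold variants of the element. CCAAT was present in 19 (70.4%), against 33.8% of all promoters. The GC box occurred in 21 (77.8%), against 32.7% of all. None of these motifs contains another, and the matches are a description of the sequences.

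The arrays were alike in brightness, with a median intensity between 82 and 96 per array, and no member was at or below an intensity of 16 on any array. The lowest member value was 31, for Mvk in pituitary. The labelled tissues matched their markers. The summed intensity of 10 pituitary hormone and cell type markers was 3493041 to 4401672 on pituitary arrays, against 143 to 171 on knockout skin arrays and 187 to 2761 on wild-type skin arrays. On 1 wild-type skin array Gh reached 2501, against 7 to 15 on the knockout skin arrays. The extraction text speaks of ear, and it stands beside the pituitary samples too. The samples went against their labelled sex in pituitary: Kdm5d, Eif2s3y and Uty, genes of the Y chromosome, summed to 2828 to 4027 on the 9 pituitary arrays, against 19 to 31 on the 9 skin arrays. Tissue and this difference cannot be told apart in the comparison of the tissues.

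In lncKO pituitary the sterol genes lay below wild type almost throughout, and 1 of them passed the test. Log2 fold changes were below 0 for 25 of 26 members, against 48.5% of all probe sets, with a median of -0.41 (0.01 over all). Of the 26, 1 was called lower and 0 higher, where 0.358% of all probe sets were called lower and 0.700% in either direction. All 3 lncKO arrays lay below all 3 wild-type arrays for 13 members (7.99% of all probe sets) and above them for 0 (8.84%). An unadjusted p under 0.05 was reached by 12 members (12.5% of all). The 18 enzymes had a median of -0.59 and the 8 control and transport genes a median of -0.22. In bulk tissue, fewer cells of a type and less RNA per cell cannot be told apart.

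Idi1, which interconverts the isoprenoid building blocks isopentenyl and dimethylallyl diphosphate, was the member called. Its intensities were 322, 355 and 408 in lncKO pituitary, 705, 619 and 447 in miR-205 KO pituitary and 628, 871 and 786 in wild-type pituitary. The lncKO arrays lay below every array of the other groups. The log2 fold change of lncKO against wild type was -1.07 ± 0.21 (SE, n = 3 per group, limma adjusted p = 0.0429). The call was lost without wild type 11 or 12 or without lncKO 13, 14 or 15, with a log2 fold change from -1.20 to -0.96 and an adjusted p of up to 0.164. It was lost as well with intensities below 16 set to 16 and with only the groups compared (adjusted p up to 0.119). The floor at 16 changed values of other probe sets only, since no member was that dim.

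Among the other mevalonate enzymes, Hmgcs1, the HMG-CoA synthase gene, had 4405, 4310 and 5252 in lncKO pituitary, against 6324, 6403 and 6312 in wild-type pituitary. Mvk, the mevalonate kinase gene, had 47, 34 and 31 in lncKO pituitary, against 61, 50 and 66 in wild-type pituitary. In both genes the lncKO arrays lay below the wild-type arrays, yet the log2 fold changes of -0.45 ± 0.19 and -0.67 ± 0.29 did not pass (adjusted p = 0.35 and 0.371). Mvd, the gene of the decarboxylase that closes the mevalonate stage, had a log2 fold change of -0.37 ± 0.26. Pmvk, the phosphomevalonate kinase gene, was the member above 0, at 0.19 ± 0.30. The enzymes that join isoprenoid units, Fdps for farnesyl diphosphate and Ggps1 for geranylgeranyl diphosphate, were near wild type at -0.06 ± 0.19 and -0.16 ± 0.16.

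The squalene steps did not move alike. Fdft1, the squalene synthase gene, had 10227, 9870 and 11850 in lncKO pituitary, against 10812, 10399 and 10683 in wild-type pituitary. The groups overlapped, with a log2 fold change of 0.00 ± 0.19. Sqle, the squalene epoxidase gene, had 378, 390 and 301 in lncKO pituitary, against 519, 892 and 651 in wild-type pituitary. The Sqle arrays did not overlap, and its log2 fold change of -0.92 ± 0.27 did not pass (adjusted p = 0.156). Lss, whose product closes the sterol rings to lanosterol, was likewise lower on every lncKO array, at -0.56 ± 0.19 (adjusted p = 0.232).

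From lanosterol on, 7 of 8 measured enzymes lay lower on every lncKO array than on any wild-type array, and none passed the test over all probe sets. Msmo1, the methylsterol oxidase gene, had 121, 163 and 143 in lncKO pituitary, 352, 265 and 173 in miR-205 KO pituitary and 319, 265 and 419 in wild-type pituitary. Its log2 fold change against wild type was -1.22 ± 0.26 (adjusted p = 0.0623), the lowest among the members. Sc5d, the sterol desaturase gene, had 2808, 3129 and 2430 in lncKO pituitary, against 4333, 4818 and 4635 in wild-type pituitary. That gap gave -0.73 ± 0.17 (adjusted p = 0.0818). Dhcr7, which completes cholesterol from its last precursor, had 567, 1156 and 1059 in lncKO pituitary, against 1711, 1303 and 2343 in wild-type pituitary. Sample 13 was the lowest, and the change was -0.97 ± 0.30 (adjusted p = 0.186). The remaining enzymes with separated arrays were the demethylase gene Cyp51 at -0.60 ± 0.32, the dehydrogenase gene Nsdhl at -0.57 ± 0.17, the ketoreductase gene Hsd17b7 at -0.65 ± 0.19 and the isomerase gene Ebp at -0.61 ± 0.21. Lbr, a sterol reductase that also anchors chromatin at the nuclear envelope, overlapped wild type at -0.23 ± 0.22. With a variance trend and robust estimation in limma, 4 members were called lower in place of 1, namely Idi1, Msmo1 (adjusted p = 0.0225), Sc5d (0.017) and Insig1 (0.0464).

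Sterol control genes were closer to wild type, apart from Insig1, itself a target of the pathway. Insig1 had 2455, 2377 and 3405 in lncKO pituitary, 5193, 3829 and 2978 in miR-205 KO pituitary and 4624, 4924 and 4517 in wild-type pituitary. The lncKO arrays lay below the wild-type arrays, with a log2 fold change of -0.79 ± 0.22 (adjusted p = 0.147). Srebf2, Scap and Insig2 overlapped wild type at -0.22 ± 0.19, -0.22 ± 0.19 and -0.09 ± 0.23. Of the transport genes, Stard4, a cytosolic cholesterol carrier, was at -0.27 ± 0.24, the exporters Abca1 and Abcg1 were at -0.26 ± 0.23 and -0.21 ± 0.21, and Mylip, a ubiquitin ligase gene induced by LXR, was at -0.01 ± 0.20.

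**Figure D1:**
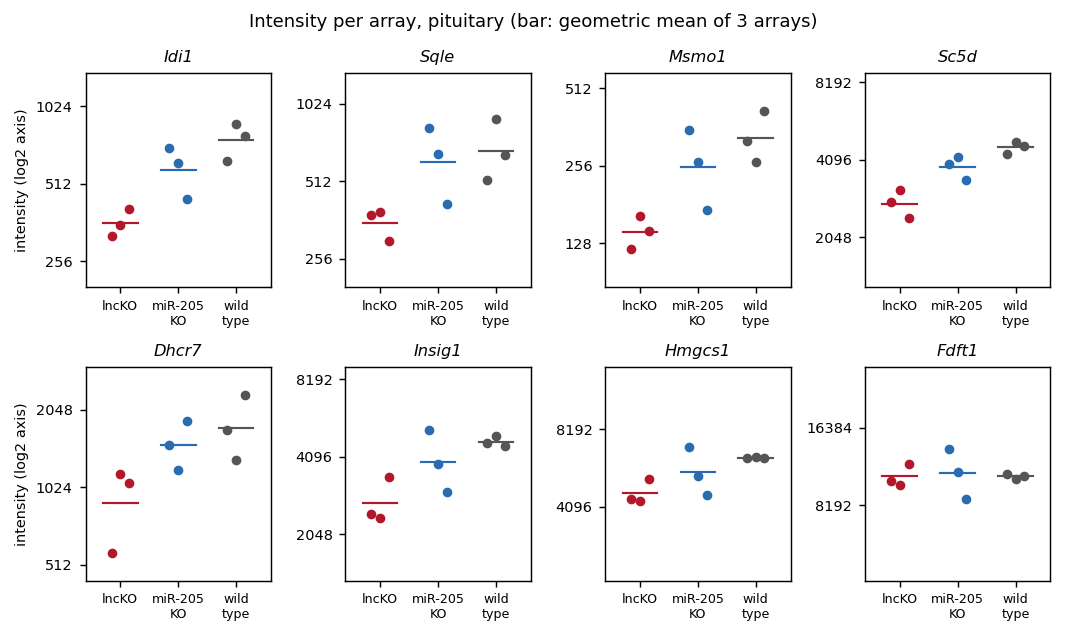
Intensity of 8 sterol genes on each pituitary array on a log2 axis, for lncKO, miR-205 KO and wild type (points: arrays, bars: geometric mean of 3 arrays). The lncKO arrays lie below the wild-type arrays for all genes shown except Fdft1, where the groups overlap.

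In neighbouring pathways of lncKO pituitary, 0 genes passed. This held for 7 measured genes of SREBP processing and sterol sensing, 18 of cholesterol transport and storage, 9 of the isoprenoid branch and 14 of fatty acid synthesis, with list medians of 0.04, -0.01, 0.00 and -0.08. Of the 14 fatty acid genes, 3 lay lower on every lncKO array than on any wild-type array (7.99% of all probe sets). They were Acaca at -0.61 ± 0.23, Scd1 at -0.73 ± 0.28 and Fads1 at -0.63 ± 0.2. An unadjusted p under 0.05 was reached by 4 of the 14, these 3 and Gpam, which was higher at 0.56 ± 0.24. Of the 18 transport and storage genes, 3 lay lower on every lncKO array and 2 higher. The higher ones included Cyp27a1, at 1.2 ± 0.32 (limma adjusted p = 0.128). Markers moved beside the sterol genes. Sox2, the transcription factor gene of pituitary stem cells, rose by 1.07 ± 0.18 (adjusted p = 0.0204), and the 6 stem and folliculostellate markers summed to 6745 to 8114 in lncKO pituitary, 4554 to 5419 in miR-205 KO pituitary and 3997 to 4410 in wild-type pituitary. Dsp, a desmosome gene among the 9 epidermal keratinocyte markers, rose by 1.45 ± 0.23 (adjusted p = 0.0155). The 9 keratinocyte markers together did not rise, with sums of 2175 to 2538 in lncKO pituitary, against 2371 to 3315 in wild-type pituitary. The endocrine markers summed to 3648107 to 4401672 in lncKO pituitary, 3493041 to 3839150 in miR-205 KO pituitary and 3695987 to 3889655 in wild-type pituitary, and 0 of 10 passed. The Y genes summed to 2828 to 3232 in lncKO pituitary, against 3766 to 4027 in wild-type pituitary, and Eif2s3y fell by 1.08 ± 0.19 (adjusted p = 0.0283). Kdm5d and Uty overlapped wild type, at -0.04 ± 0.23 and 0.01 ± 0.16. The 8 adipocyte markers, 4 of them at or below 16 on all arrays of each pituitary group, summed to 183 to 199 in lncKO pituitary, against 301 to 356 in wild-type pituitary. Cartilage markers summed to 513 to 643 in lncKO pituitary, against 979 to 1176 in wild-type pituitary, and 1 of 7, the matrix link protein gene Hapln1, fell by 2.11 ± 0.38 (adjusted p = 0.0297). Sebaceous gland markers summed to 1087 to 1470 in lncKO pituitary, against 1482 to 2230 in wild-type pituitary, and 0 of 10 passed. The part of these markers in the sterol result was not tested.

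In miR-205 KO pituitary no member passed the test. The median log2 fold change was -0.11 (0.01 over all probe sets), 16 of 26 members were below 0 (47.6% of all), and 0 were called, where 0.107% of all probe sets were (0.0409% higher and 0.0664% lower). An unadjusted p under 0.05 was reached by 2 members (7.47% of all), Pmvk and Insig2, and the lowest adjusted p among members was 0.647. Pmvk had 1581, 1277 and 1312 in miR-205 KO pituitary, against 656, 771 and 1196 in wild-type pituitary, and its groups did not overlap. Its log2 fold change was 0.71 ± 0.30. The arrays of Pmvk, Fdps and Ggps1 were all above wild type (5.89% of all probe sets), with Fdps at 0.40 ± 0.19 and Ggps1 at 0.12 ± 0.16. Those of Sc5d were all below it (4.58%), at -0.25 ± 0.17. For Idi1 the log2 fold change was -0.38 ± 0.21, with a 95% confidence interval from -0.84 to 0.08.

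Set directly against miR-205 KO, lncKO pituitary was lower for 25 of 26 members, against 50.9% of all probe sets, and 0 members passed the test (0.291% of all were called, 0.138% higher and 0.153% lower). The median was -0.37 and the lowest adjusted p 0.198, for Lss. Lss had 1015, 1433 and 1255 in lncKO pituitary, against 1805, 2321 and 1710 in miR-205 KO pituitary. Its groups did not overlap, with a log2 fold change of -0.66 ± 0.19. In all, 13 members lay lower on each lncKO array than on any miR-205 KO array (8.38% of all probe sets), 0 lay higher (7.49%), and 11 had an unadjusted p under 0.05 (11.1%). The differences of Ebp, Idi1 and Msmo1 were -0.71 ± 0.21, -0.69 ± 0.21 and -0.84 ± 0.26 (adjusted p = 0.21, 0.231 and 0.248). Abca1 was the member above 0, at 0.07 ± 0.23. Each tissue had a single set of wild-type arrays for both knockouts, so the fold changes against wild type share the error of those arrays.

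Read array by array, the enzymes lay lowest on the lncKO arrays. The median over the 18 enzymes of log2 intensity minus the wild-type mean was -0.65, -0.55 and -0.52 on lncKO arrays 13, 14 and 15. On miR-205 KO arrays 16, 17 and 18 it was 0.09, -0.18 and -0.28. On wild-type arrays 10, 11 and 12 it was -0.03, -0.07 and 0.06. Thus the lncKO arrays formed a narrow cluster, while the miR-205 KO arrays lay between 0.09 and -0.28 and overlapped the wild-type arrays. The wild-type arrays are centred near 0 by construction, since their own mean was subtracted. These medians restate the values behind the fold changes above and are not separate evidence.

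**Figure D2:**
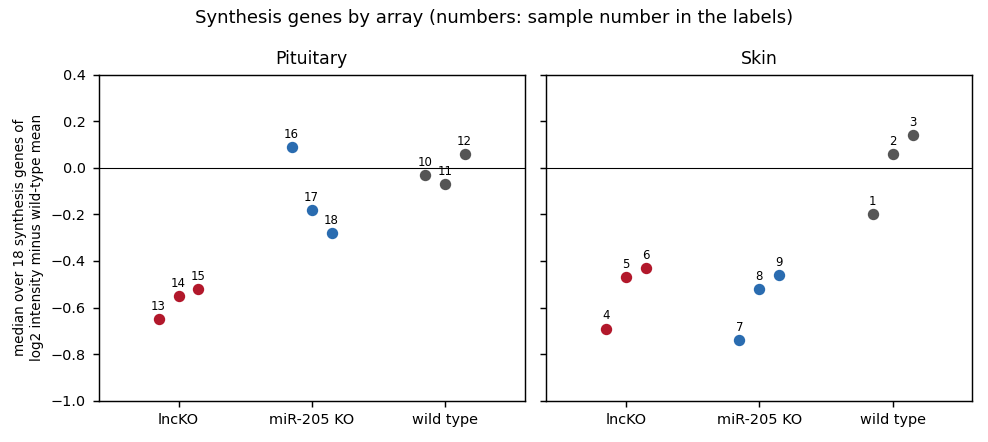
Median over the 18 measured enzymes of log2 intensity minus the wild-type mean of the same tissue, per array, for lncKO, miR-205 KO and wild type; the number at each point is the sample number. In pituitary only the lncKO arrays lie at -0.52 or below, and in skin all 6 knockout arrays lie at -0.43 or below.

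In skin, both knockouts had less RNA of a block of sterol enzymes. In lncKO skin 7 of 26 members were called lower and 0 higher, where 9.17% of all probe sets were called lower, 6.21% higher and 15.4% in either direction. In miR-205 KO skin 10 members were called lower and 0 higher, where 10.0% of all probe sets were called lower, 6.79% higher and 16.8% in either direction. Log2 fold changes were below 0 for 22 of 26 members in lncKO skin (55.6% of all probe sets) and for 18 in miR-205 KO skin (55.1%). An unadjusted p under 0.05 was reached by 14 members in lncKO skin (30.9% of all) and by 13 in miR-205 KO skin (32.1%). The members' medians were -0.50 in lncKO skin and -0.45 in miR-205 KO skin, with -0.07 over all probe sets in each. Arrays that did not overlap wild type and lay lower were found for 10 members in lncKO skin (18.2% of all probe sets) and for 12 in miR-205 KO skin (20.0%). They lay higher for 1 member in each, Hsd17b7 in lncKO skin (13.3%) and Idi1 in miR-205 KO skin (14.9%). The balance of calls over all probe sets moved with the scaling. In lncKO skin 1215 were called higher and 1794 lower, against 1509 and 1476 after quantile normalization and 1499 and 1458 after median centring. In miR-205 KO skin the counts were 1328 and 1965, against 1582 and 1563 and 1677 and 1590. Under either scaling, 7 members were called lower in lncKO skin and 9 in miR-205 KO skin, and 0 higher. With intensities below 16 set to 16, 5 members were called in miR-205 KO skin, where Mvk, Msmo1, Ebp, Dhcr7 and Insig1 were lost, and 6 in lncKO skin, where Mvk was lost.

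Of the mevalonate genes, Mvd and Mvk fell in both knockouts. Mvd had 218, 285 and 231 in lncKO skin, 281, 291 and 386 in miR-205 KO skin and 611, 873 and 593 in wild-type skin. Every knockout array lay below every wild-type array, with log2 fold changes of -1.49 ± 0.24 in lncKO skin (adjusted p = 0.00185) and -1.11 ± 0.24 in miR-205 KO skin (0.00809). Mvk had 49, 75 and 86 in lncKO skin, 84, 108 and 70 in miR-205 KO skin and 129, 324 and 168 in wild-type skin. Wild type 2 was the highest, and the knockout arrays again lay below all wild-type arrays. The Mvk changes were -1.49 ± 0.33 (adjusted p = 0.0112) and -1.16 ± 0.33 (0.0325), the second lost on leaving out wild type 2 or either of miR-205 KO 7 and 9, with adjusted p up to 0.115.

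Hmgcs1, upstream of these enzymes, went the other way without passing. It had 133771, 111046 and 137843 in lncKO skin, 129983, 140037 and 112301 in miR-205 KO skin and 84773, 93250 and 121516 in wild-type skin. The groups overlapped through wild type 3, and both changes were 0.36 ± 0.22 (adjusted p = 0.282 and 0.277). Pmvk, Idi1, Fdps and Ggps1 stayed within 0.30 of wild type on the log2 scale in both knockouts and did not pass. Idi1, called in lncKO pituitary, had 7864, 5868 and 8591 in lncKO skin, against 8277, 7156 and 8520 in wild-type skin, with a change of -0.12 ± 0.22.

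Of the squalene steps, Fdft1 and Sqle fell in both knockouts. Fdft1 had 5969, 6722 and 5827 in lncKO skin, 6082, 7717 and 7764 in miR-205 KO skin and 11073, 12712 and 13824 in wild-type skin. No knockout array reached a wild-type array, and the changes were -1.02 ± 0.21 (adjusted p = 0.00716) and -0.81 ± 0.21 (0.02). In miR-205 KO skin Fdft1 no longer passed on leaving out sample 2, 3 or 7, with adjusted p up to 0.087. Sqle had 1498, 1743 and 1702 in lncKO skin, 1797, 1757 and 1898 in miR-205 KO skin and 3941, 2955 and 2367 in wild-type skin. The groups were separated, at -0.88 ± 0.23 (adjusted p = 0.0206) and -0.73 ± 0.23 (0.0421). In lncKO skin Sqle no longer passed on leaving out sample 1, 4 or 6 (adjusted p up to 0.0688). In miR-205 KO skin it was lost without each array except wild type 3 (up to 0.13), under both other scalings and with only the groups compared. Lss did not pass, at -0.73 ± 0.28 in lncKO skin and -0.85 ± 0.28 in miR-205 KO skin (adjusted p = 0.094 and 0.0513).

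Among the enzymes from lanosterol on, Nsdhl and Ebp fell in both knockouts. Nsdhl had 3902, 5107 and 4840 in lncKO skin, 4640, 4978 and 5025 in miR-205 KO skin and 8577, 8405 and 11379 in wild-type skin. The separation was wide, with changes of -1.03 ± 0.22 (adjusted p = 0.00801) and -0.94 ± 0.22 (0.0114). Ebp had 343, 368 and 431 in lncKO skin, 334, 379 and 528 in miR-205 KO skin and 580, 861 and 1053 in wild-type skin. Its groups were separated too, at -1.09 ± 0.26 (adjusted p = 0.0158) and -0.99 ± 0.26 (0.0227). Without wild type 3 or lncKO 4 the Ebp call in lncKO skin was lost (adjusted p up to 0.0558). That in miR-205 KO skin was lost without wild type 2 or 3 or miR-205 KO 7 or 8 (up to 0.0971).

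Msmo1 and Dhcr7 fell in miR-205 KO skin and missed the threshold in lncKO skin. Msmo1 had 2189, 1794 and 1980 in lncKO skin, 2161, 2181 and 1129 in miR-205 KO skin and 4160, 2875 and 3932 in wild-type skin. Dhcr7 had 3095, 4602 and 3640 in lncKO skin, 2825, 3782 and 3602 in miR-205 KO skin and 4796, 6923 and 8290 in wild-type skin. All knockout arrays of both genes lay below the wild-type arrays. The Msmo1 changes were -0.87 ± 0.28 in lncKO skin (adjusted p = 0.0509) and -1.05 ± 0.28 in miR-205 KO skin (0.0217). Those of Dhcr7 were -0.80 ± 0.26 (adjusted p = 0.0509) and -0.95 ± 0.26 (0.0246). With a variance trend and robust estimation both genes passed in lncKO skin as well (adjusted p = 0.0378 for Msmo1 and 0.0352 for Dhcr7). Msmo1 also passed there without wild type 2 or with only the groups compared, and Dhcr7 without wild type 1 or lncKO 5. The Msmo1 call in miR-205 KO skin was lost without wild type 1 or 3 or miR-205 KO 9, and the Dhcr7 call without wild type 2 or 3 or miR-205 KO 7 or 9.

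Hsd17b7 was higher in both knockouts without passing. It had 40015, 38825 and 48225 in lncKO skin, 39137, 47227 and 36808 in miR-205 KO skin and 22662, 19747 and 38381 in wild-type skin. Wild type 3 stood near the knockouts, and the changes were 0.71 ± 0.26 (adjusted p = 0.0841) and 0.66 ± 0.26 (0.1). Without wild type 3 they were 0.99 and 0.95 (adjusted p = 0.021 and 0.0248). Cyp51, Lbr and Sc5d had changes between -0.30 and 0.04 in the knockouts and did not pass.

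Of the control and transport genes in skin, Stard4 fell in both knockouts. It had 833, 491 and 557 in lncKO skin, 670, 545 and 446 in miR-205 KO skin and 1692, 2166 and 1087 in wild-type skin. All knockout arrays were below all wild-type arrays, with changes of -1.38 ± 0.29 (adjusted p = 0.00888) and -1.54 ± 0.29 (0.00482). Both calls held without any single array. Insig1 had 2043, 3630 and 2155 in lncKO skin, 1680, 2065 and 2006 in miR-205 KO skin and 3646, 5618 and 3233 in wild-type skin. Insig1 fell by 1.08 ± 0.28 on the log2 scale in miR-205 KO skin (adjusted p = 0.0194), a call lost on leaving out sample 2 or 7 and with the floor at 16 (adjusted p = 0.0637 with the floor). In lncKO skin sample 5 overlapped wild type and the change was -0.68 ± 0.28 (adjusted p = 0.115, and 0.0447 without lncKO 5). Scap was at -1.18 ± 0.37 in lncKO skin and -0.94 ± 0.37 in miR-205 KO skin (adjusted p = 0.0505 and 0.104), and passed in lncKO skin with a variance trend and robust estimation (0.0391). Srebf2, Insig2, Abca1, Abcg1 and Mylip did not pass, with changes from -0.62 to 0.35.

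**Figure D3:**
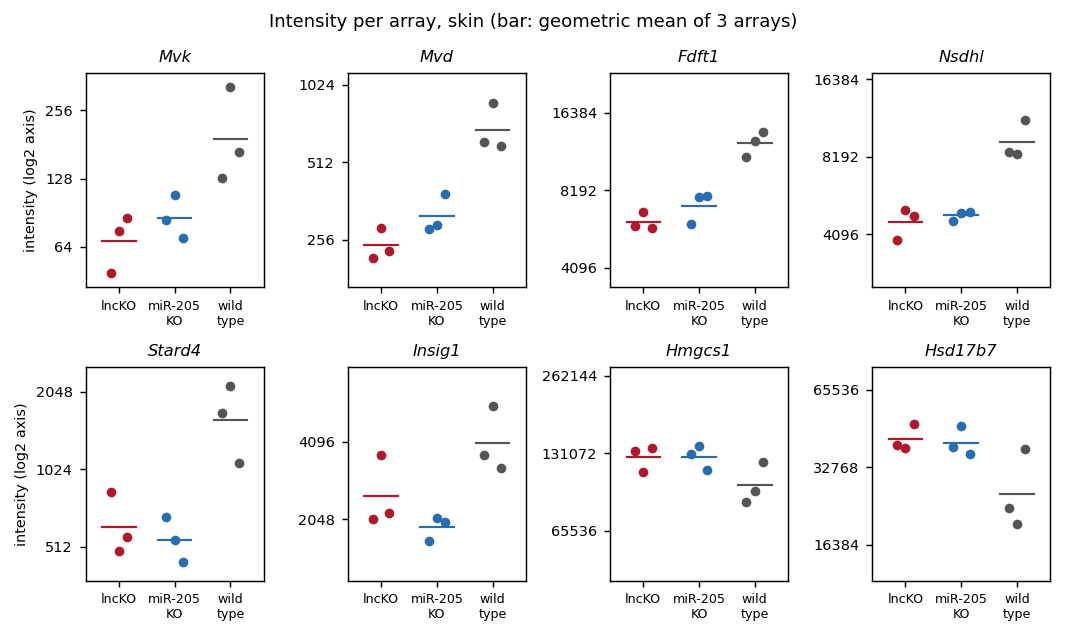
Intensity of 8 sterol genes on each skin array on a log2 axis, for lncKO, miR-205 KO and wild type (points: arrays, bars: geometric mean of 3 arrays). Knockout arrays lie below wild-type arrays for Mvk, Mvd, Fdft1, Nsdhl and Stard4, overlap them for Insig1 in lncKO, and overlap them or lie higher for Hmgcs1 and Hsd17b7.

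Some genes of neighbouring pathways passed in skin too. Acly, which makes the acetyl units used for sterols and fatty acids, fell by 1.04 ± 0.21 in lncKO skin and by 1.13 ± 0.21 in miR-205 KO skin (adjusted p = 0.00648 and 0.00408). Elovl6, a fatty acid elongase gene, rose by 0.97 ± 0.29 and 1.28 ± 0.29 (adjusted p = 0.0384 and 0.0107). They were the genes called among 14 of fatty acid synthesis, 1 higher and 1 lower in each knockout, a share near that of all probe sets (15.4% called in lncKO skin and 16.8% in miR-205 KO skin). Of 18 other transport and storage genes, 1 was called higher and 4 lower in lncKO skin, and 1 higher and 2 lower in miR-205 KO skin. Of all probe sets, 6.21% were called higher and 9.17% lower in lncKO skin, and 6.79% higher and 10.0% lower in miR-205 KO skin. Apoe, a lipoprotein gene, rose by 0.67 ± 0.20 and 0.70 ± 0.20. Gramd1a, a membrane sterol transfer gene, fell by 1.13 ± 0.28 and 0.88 ± 0.28, and Nceh1, a cholesteryl ester hydrolase gene, fell by 0.83 ± 0.25 and 0.79 ± 0.25. In lncKO skin Stard3 and Npc2, both of endosomal sterol transfer, fell by 1.13 ± 0.28 and 0.82 ± 0.25. After quantile normalization 2 transport genes in place of 5 were called in lncKO skin and 0 in place of 3 in miR-205 KO skin. Of 7 genes of SREBP processing, 0 passed in lncKO skin and Mbtps1, the protease gene of the first cleavage, fell in miR-205 KO skin by 0.93 ± 0.22 (adjusted p = 0.0118). Of 9 isoprenoid genes 0 passed in either knockout.

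Summed markers of several skin cell types lay apart from wild type in both knockouts. The counts of markers that rose stand beside 6.21% of all probe sets called higher in lncKO skin and 6.79% in miR-205 KO skin. Adipocyte markers summed to 168588 to 263811 in lncKO skin, 171363 to 309555 in miR-205 KO skin and 86079 to 142149 in wild-type skin, and 6 of 8 rose in each knockout. Sebaceous gland markers summed to 899867 to 969898 in lncKO skin, 816121 to 859831 in miR-205 KO skin and 429185 to 633057 in wild-type skin, and 3 of 10 rose in each, Scd3 by 4.23 ± 0.74 in lncKO skin and by 3.82 ± 0.74 in miR-205 KO skin. Hair shaft and root sheath markers summed to 286 to 681 in lncKO skin and 402 to 564 in miR-205 KO skin, against 381, 6626 and 9596 in wild-type skin. Of 11 such markers, 3 fell in lncKO skin, where 9.17% of all probe sets were called lower, and 1 in miR-205 KO skin (10.0%). Cartilage markers rose for 5 of 7 in each knockout. They summed to 40287 to 72901 in lncKO skin, 48959 to 65421 in miR-205 KO skin and 12878 to 18461 in wild-type skin. Epidermal keratinocyte markers summed to 1623047 to 1960792 in lncKO skin, 1663260 to 1853758 in miR-205 KO skin and 1163272 to 1293694 in wild-type skin, and of 9 such genes 3 rose and 1 fell in each knockout. Dermal fibroblast markers summed to 1322265 to 1634449 in lncKO skin, 1436462 to 1516921 in miR-205 KO skin and 858214 to 974024 in wild-type skin, and 2 of 6 rose in each knockout. Macrophage markers overlapped wild type, at 35796 to 43698 in lncKO skin, 45167 to 53284 in miR-205 KO skin and 31113 to 63348 in wild-type skin. Skeletal muscle markers overlapped too, at 63201 to 204156 in lncKO skin, 85687 to 155690 in miR-205 KO skin and 69017 to 138273 in wild-type skin. The part of these markers in the sterol result was not tested.

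**Figure D4:**
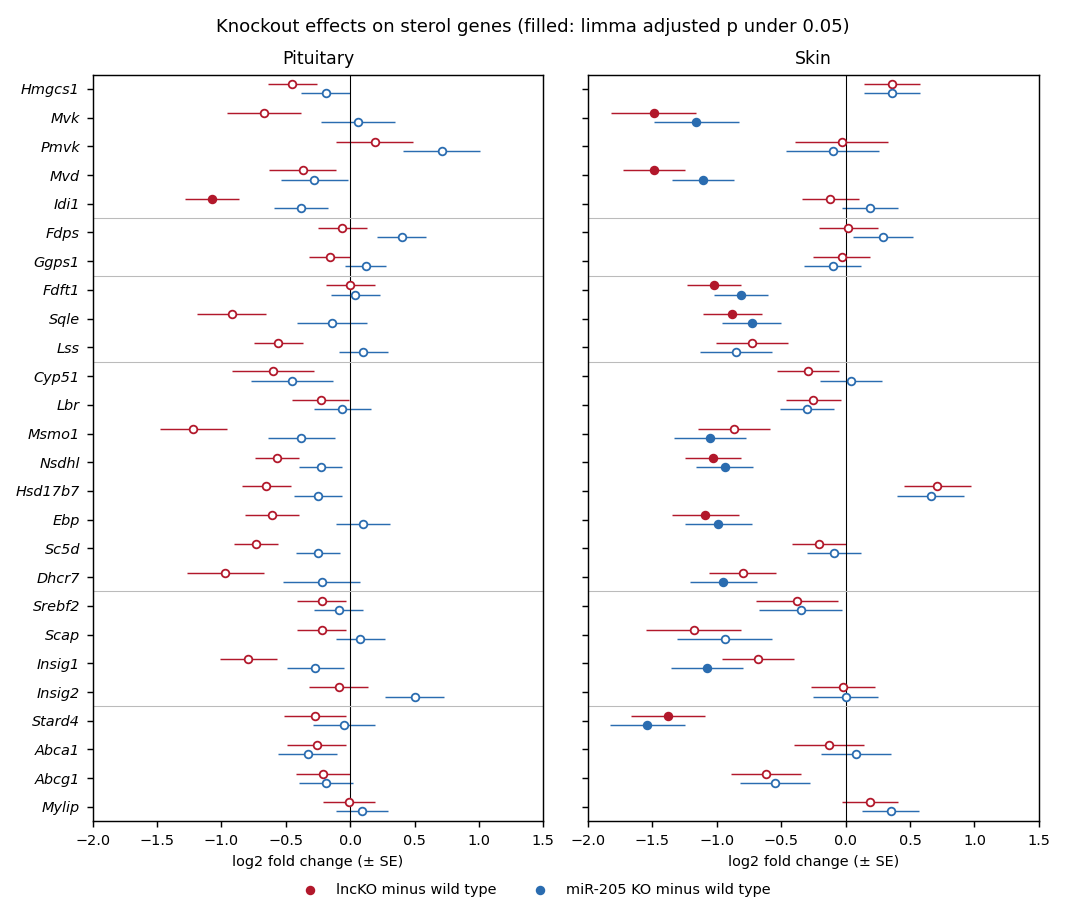
Log2 fold change of the 26 measured sterol genes against wild type in pituitary (left) and skin (right), for lncKO and miR-205 KO (points: estimate, bars: SE, filled: limma adjusted p under 0.05). Idi1 alone is filled in pituitary, for lncKO, and 7 genes for lncKO and 10 for miR-205 KO are filled in skin.

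The skin knockouts were not told apart by any sterol gene. Between lncKO and miR-205 KO skin 0 members and 0 of all 19572 probe sets (0%) passed the limma test. An unadjusted p under 0.05 was reached by 0 members and 637 probe sets (3.25%). Differences ran from -0.38 to 0.40 over the members, with a median of -0.08, and 16 of 26 were below 0 (51.4% of all). The arrays did not overlap for 1 member that was lower in lncKO, Sqle (3.72% of all probe sets), and for 1 that was higher, Ggps1 (3.60%). For Mvd, at -0.38 ± 0.24, the 95% confidence interval ran from -0.89 to 0.13, and for Insig1, at 0.40 ± 0.28, from -0.20 to 1.00. Neither difference passed with 3 arrays per group, and the intervals do not show that the knockouts are equal.

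Wild-type pituitary had less RNA of most sterol genes than wild-type skin. Of 26 members, 18 were called lower and 3 higher in pituitary, where 26.4% of all probe sets were called lower, 25.7% higher and 52.1% in either direction. An unadjusted p under 0.05 was reached by 22 members (56.1% of all), and 19 were below 0 (50.7%). Arrays did not overlap for 19 members that were lower in pituitary (27.8% of all) and for 4 that were higher (27.8%). The median was -1.81 (-0.01 over all probe sets), -2.06 for the enzymes and -0.47 for control and transport genes. Hsd17b7 had 208, 286 and 228 in pituitary, against 22662, 19747 and 38381 in skin, a difference of -6.76 ± 0.23 or 108-fold lower in pituitary. Hmgcs1 had 6324, 6403 and 6312 in pituitary, against 84773, 93250 and 121516 in skin (-3.96 ± 0.20, 15.5-fold lower). Msmo1 and Idi1 followed at -3.46 ± 0.28 and -3.40 ± 0.21. No pituitary array of these genes came near a skin array.

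A further 10 enzymes were lower in pituitary. They were Mvd at -3.05 ± 0.25, Lbr at -2.98 ± 0.21, Fdps at -2.89 ± 0.20, Cyp51 at -2.76 ± 0.29, Sqle at -2.17 ± 0.25, Lss at -1.95 ± 0.24, Dhcr7 at -1.91 ± 0.29, Mvk at -1.71 ± 0.33, Nsdhl at -1.68 ± 0.19 and Sc5d at -1.26 ± 0.18. Mylip, Stard4, Abca1 and Insig2 were lower as well, at -2.99 ± 0.21, -2.20 ± 0.28, -1.19 ± 0.26 and -1.11 ± 0.24. The genes higher in pituitary were the exporter gene Abcg1, with 1628, 1420 and 1379 in pituitary against 225, 391 and 284 in skin (2.33 ± 0.25), the escort gene Scap (1.35 ± 0.32) and Ggps1 (0.62 ± 0.18). Srebf2, Insig1, Fdft1, Ebp and Pmvk did not pass, with differences from -0.23 to 0.78. All adjusted p-values of the 21 genes called were 0.00627 or below, and 21 were called without any single array. Fatty acid genes were unequal between the tissues, with 9 of 14 lower in pituitary, led by Scd1 at -7.03 ± 0.25, and 3 higher, led by Fads2 at 5.43 ± 0.30.

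**Figure D5:**
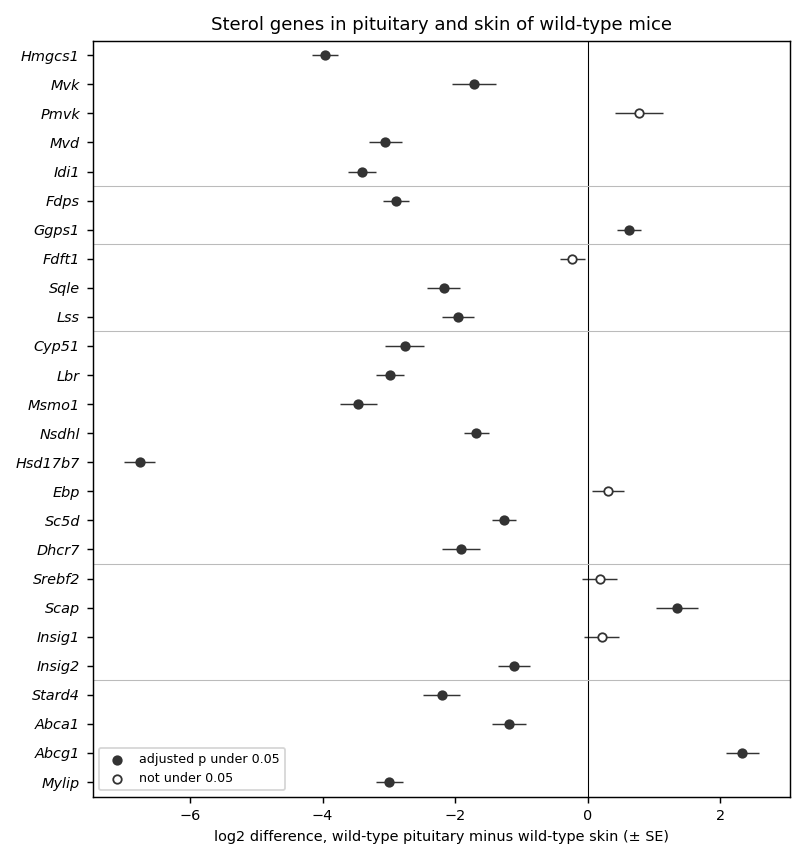
Log2 difference between wild-type pituitary and wild-type skin for 26 sterol genes (points: estimate, bars: SE, filled: limma adjusted p under 0.05). The largest difference is that of Hsd17b7 at -6.76, and Abcg1 is the highest gene at 2.33.

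Whether a knockout effect differed between the tissues was tested as an interaction over all 18 arrays, pituitary effect minus skin effect. For lncKO, 3 of 26 members passed, where 9.25% of all probe sets did (5.88% higher and 3.37% lower). Of the 26, 7 had an unadjusted p under 0.05 (24.8% of all) and 14 were below 0 (44.8%). Idi1 changed by -1.07 in pituitary and -0.12 in skin, an interaction of -0.95 ± 0.30 (adjusted p = 0.0489). This call was kept without 2 of 12 arrays, skin lncKO 5 and pituitary wild type 10, with adjusted p up to 0.111. Fdft1 changed by 0.00 in pituitary and -1.02 in skin, an interaction of 1.02 ± 0.27 (adjusted p = 0.0225, and 0.0601 without pituitary lncKO 15). Hsd17b7 was at -0.65 in pituitary and 0.71 in skin, an interaction of -1.36 ± 0.33 (adjusted p = 0.0129), which held without any single array. The members' median was -0.06, and 0.10 without skin wild type 1.

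For miR-205 KO, 2 members passed the interaction, where 9.95% of all probe sets did (6.26% higher and 3.69% lower). Of the 26, 10 had an unadjusted p under 0.05 (25.9% of all) and 7 were below 0 (44.4%). Stard4 had an interaction of 1.49 ± 0.39 (adjusted p = 0.0211), and Ebp one of 1.09 ± 0.34 (0.049). The effects behind them were -0.05 in pituitary and -1.54 in skin for Stard4, and 0.10 in pituitary and -0.99 in skin for Ebp. Stard4 was lost without skin wild type 2 or skin miR-205 KO 9 and after quantile normalization (adjusted p = 0.0512). Ebp was lost under 9 of 12 omissions, under both other scalings and with the floor at 16, with adjusted p up to 0.122. The median was 0.55 over the members and 0.08 over all probe sets. After median centring the median of all probe sets was -0.03 for lncKO and -0.04 for miR-205 KO, in place of 0.08 in each. For lncKO 864 were then called higher and 838 lower, and 893 and 832 after quantile normalization, in place of 1151 and 660. For miR-205 KO the counts were 882 and 981 after median centring and 907 and 856 after quantile normalization, in place of 1225 and 723. Idi1, Fdft1 and Hsd17b7 passed the lncKO interaction under either scaling, with estimates of -1.06, 0.91 and -1.46 after median centring.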

How the data were processed

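Total RNA of 18 samples was amplified, labelled and hybridised to Clariom S arrays, per the labels' protocols. The authors deposited a whole-number intensity, linear in scale, for each probe set on each array. How background was corrected, probes summarised and arrays normalized is not given in the sources used here. Probe sets were named through the platform's annotation, with symbols updated by a RefSeq table of GRCm38.p6. Of 22206 probe sets, 19572 had 1 symbol, 0 had several and 2634 had none. Intensities were log2 transformed with no pseudocount and no further scaling. Comparisons used limma 3.58.1 in R 4.3.3 (lmFit and eBayes, two-sided), with Benjamini-Hochberg adjustment over 19572 probe sets and a threshold of 0.05. Within a tissue the 9 arrays shared a fit with 6 residual degrees of freedom. The comparison of tissues and the interactions used all 18 arrays, with 12. Errors of log2 fold changes are standard errors. Precision is limited by the number of arrays.

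All 29 genes are named, with values for members past the threshold and values or ranges for the rest, and up to 4 genes per other list by smallest p. The members and lists were chosen with earlier results of these data known. Alternatives were quantile normalization, median centring, a floor at an intensity of 16, leaving out probe sets with a mean log2 intensity under 4, a variance trend with robust estimation, all probe sets of the table, only the groups compared, and leaving out each array. Figures were drawn with matplotlib 3.10.9 in Python 3.11.15.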

Additional observations from a re-analysis of the deposited data

Results flagged for a closer look

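Knockout effects that differed between the tissues, by an interaction test over all 18 arrays (limma adjusted p under 0.05, pituitary effect minus skin effect), were found for 5 pairs of a gene and a knockout, 3 of 26 members for lncKO (9.25% of all probe sets) and 2 of 26 for miR-205 KO (9.95%), which is near the share of all probe sets. For lncKO these were Idi1 at -0.95 ± 0.30 (adjusted p = 0.0489), Fdft1 at 1.02 ± 0.27 (0.0225) and Hsd17b7 at -1.36 ± 0.33 (0.0129). For miR-205 KO they were Ebp at 1.09 ± 0.34 (0.049) and Stard4 at 1.49 ± 0.39 (0.0211). Tissue and the signal of Y chromosome genes described above cannot be told apart in these tests.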

How the results depend on the processing

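No fold change of a member that passed was reversed under any alternative run. The count of members called in lncKO pituitary was 1, ranged from 0 to 1 without single arrays, and was 0 with the floor at 16, 0 with only the groups compared and 4 with a variance trend and robust estimation. In miR-205 KO skin it was 10, from 4 to 9 without single arrays, 5 with the floor and up to 11 under the other alternatives. In lncKO skin it was 7, from 5 to 9 without single arrays and from 6 to 10 under the other alternatives, with Msmo1, Dhcr7 and Scap added by a variance trend and robust estimation. For the lncKO interaction it was 3, from 1 to 4 without single arrays, and for the miR-205 KO interaction 2, from 0 to 5, and 1 after quantile normalization or median centring. The floor left every member value unchanged and acted only through the other probe sets in the fit. The cause of the other shifts was not tested. The comparison of tissues gave 21 to 22, and the other 3 comparisons 0, under every alternative. Members' medians lay between -0.55 and -0.38 in lncKO pituitary, -0.55 and -0.37 in lncKO skin and -0.61 and -0.26 in miR-205 KO skin. No paired analysis was possible because sample numbers run from 1 to 18 and none recurs. After quantile normalization 1 gene in place of 3 was called among sebaceous markers in miR-205 KO skin and among hair markers in lncKO skin, and 1 in place of 2 among fatty acid genes in lncKO skin. Mvk, with a lowest intensity of 31, lay closest to background.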
